A study of Mus musculus with 22 samples.

Results

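To ask where hnRNP A1 left a footprint on RNA of the healthy spinal cord but on none of the cords with experimental autoimmune encephalomyelitis (EAE), the footprints of 10 mice were joined wherever they overlapped or touched, which gave 82220 union regions. The members described here, called naïve-only regions, were defined by having a footprint in at least 2 of the 3 naïve mice and in none of the 7 EAE mice. The rule kept 1843 regions, 2.24% of all union regions. It kept 24.4% of the 7563 regions that had a footprint in at least 2 naïve mice, and the other 5720, called shared regions, also had one in at least 1 EAE mouse. Because the same footprint lists chose the members, their presence in naïve and absence in EAE mice is a description and carries no test.

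The mice were wild-type female C57Bl/6, and the 7 EAE mice had been immunized with the myelin peptide MOG(35-55), emulsified in complete Freund's adjuvant, and given pertussis toxin. The series' design text gives their age at immunization as 8 weeks and the treatment protocol gives 12 weeks. Cords were taken 15 days after the onset of clinical signs, with age-matched naïve mice as controls that received no immunization. By the clinical scores in the labels, mild EAE comprised mouse 3 (score 1.5), mouse 4 (1.5) and mouse 7 (1.0), and severe EAE comprised mouse 1 (2.5), mouse 2 (3.0), mouse 5 (2.5) and mouse 6 (3.0). Each mouse gave 1 anti-hnRNP A1 immunoprecipitation after UV crosslinking of the cord, and the antibody clone is 9H10 in the labels and 4B10 in the study's methods. The lysate held every cell type of the cord, so that fewer cells of a type and less RNA per cell cannot be told apart.

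hnRNP A1 is an abundant nuclear RNA-binding protein that shuttles to the cytoplasm. It binds precursor and mature RNAs through a pair of RNA recognition motifs, with a preference for UAG and related AG-rich sequence, and it is best known for repressing the inclusion of exons. In EAE, an immune attack on myelin damages axons and neurons, chiefly in the spinal cord. CLIPseq reads the RNA that UV light has crosslinked to a protein. A footprint here is a stretch of the genome covered by contigs assembled from the immunoprecipitated RNA, after removal of anything also covered by the same mouse's input or by pooled IgG.

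The sequences show what the members look like, and were drawn from the intronic and coding regions of up to 300 nt with the longest stretch footprinted in all 3 naïve mice, those with the most UAG, and those in Mapt and Nrcam, among the genes that the study followed further. All are GRCm38 sequence read 5′ to 3′ on the strand of the gene, with each UAG (TAG in DNA letters) in capitals. The region in an intron of Nrg1, the growth factor neuregulin 1, lay at chr8:32628949-32629145 (197 nt, minus strand), and 159 nt of it were footprinted in all 3 naïve mice. The region in an intron of Robo1, an axon guidance receptor, lay at chr16:72602738-72602916 (179 nt, plus strand), with 142 nt common to the 3 mice. The region in coding sequence of Sptan1, the alpha spectrin of the axonal membrane skeleton, lay at chr2:29996737-29996955 (219 nt, plus strand), with 149 nt common to the 3 mice. In an intron of Auh, a mitochondrial enzyme of leucine breakdown that also binds AU-rich RNA, the region lay at chr13:52897325-52897447 (123 nt, minus strand), held 28 UAG and was footprinted along its whole length in all 3 naïve mice. The member with the most UAG lay in an intron of Rapgef5, an exchange factor for Rap GTPases, at chr12:117738925-117739118 (194 nt, plus strand), held 32 UAG and had a footprint in naïve mice 1 and 3. Both of the last sequences are mostly simple tandem repeats, and the genome's repeat mask covered 100% of the Auh region and 83.0% of the Rapgef5 region. The mask also covered 95.4% of the Nrg1 region, 40.2% of the Robo1 region and 9.59% of the Sptan1 region. The Mapt region, in coding sequence of the microtubule-binding protein tau, lay at chr11:104298598-104298802 (205 nt, plus strand), and the Nrcam region, in coding sequence of a neuronal cell adhesion molecule, at chr12:44566288-44566412 (125 nt, plus strand).
Nrg1 intron: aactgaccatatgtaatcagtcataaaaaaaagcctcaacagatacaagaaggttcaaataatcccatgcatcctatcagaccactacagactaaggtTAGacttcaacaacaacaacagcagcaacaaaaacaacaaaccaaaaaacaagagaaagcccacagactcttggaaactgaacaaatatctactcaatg
Robo1 intron: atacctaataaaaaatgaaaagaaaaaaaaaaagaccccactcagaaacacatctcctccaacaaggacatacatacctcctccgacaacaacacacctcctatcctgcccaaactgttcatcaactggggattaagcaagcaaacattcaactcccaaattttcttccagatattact
Sptan1 coding sequence: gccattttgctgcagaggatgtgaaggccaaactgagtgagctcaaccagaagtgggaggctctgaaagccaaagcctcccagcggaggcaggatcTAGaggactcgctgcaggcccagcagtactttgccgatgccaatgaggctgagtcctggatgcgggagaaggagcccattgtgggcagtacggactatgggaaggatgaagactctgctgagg
Auh intron: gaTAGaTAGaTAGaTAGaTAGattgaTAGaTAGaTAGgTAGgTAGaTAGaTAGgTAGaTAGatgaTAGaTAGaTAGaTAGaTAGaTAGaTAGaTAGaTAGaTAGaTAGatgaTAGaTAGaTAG
Rapgef5 intron: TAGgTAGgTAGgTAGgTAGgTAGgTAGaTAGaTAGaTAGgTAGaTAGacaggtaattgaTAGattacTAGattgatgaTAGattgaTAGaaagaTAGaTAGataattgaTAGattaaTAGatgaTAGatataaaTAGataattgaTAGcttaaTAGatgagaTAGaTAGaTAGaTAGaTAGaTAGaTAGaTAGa
Mapt coding sequence: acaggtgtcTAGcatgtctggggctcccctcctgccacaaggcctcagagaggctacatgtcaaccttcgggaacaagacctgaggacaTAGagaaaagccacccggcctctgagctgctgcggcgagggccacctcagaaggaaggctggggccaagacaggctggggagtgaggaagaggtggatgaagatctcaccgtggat
Nrcam coding sequence: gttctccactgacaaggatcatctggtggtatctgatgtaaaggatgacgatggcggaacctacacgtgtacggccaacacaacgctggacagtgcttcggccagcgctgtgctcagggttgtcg

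The naïve lists were of like length, with 17119, 17454 and 17494 footprints in mice 1, 2 and 3. Of these, 1455 (8.50%), 1062 (6.08%) and 1396 (7.98%) lay in naïve-only regions. The EAE lists were not of like length. There were 14534, 9751 and 24433 footprints in mild EAE mice 3, 4 and 7. Of the severe EAE mice, mouse 5 had 31870, while mice 1, 2 and 6 had 2670, 209 and 673. The last 3 lists therefore had little room to share a region with naïve cord: their footprints fell in 425, 29 and 90 of the 7563 regions footprinted in at least 2 naïve mice, against 4245 for severe EAE mouse 5 and 2256 to 3529 for the mild EAE mice. Without severe EAE mice 1, 2 and 6, a choice made after their lengths were seen, the rule kept 1877 regions. Without severe EAE mouse 5 it kept 2482, and without the 3 mild EAE mice 3235. The absence of a footprint means that none was retained in that list, and the reads behind each footprint are unknown because the lists carry no counts.

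**Figure D1:**
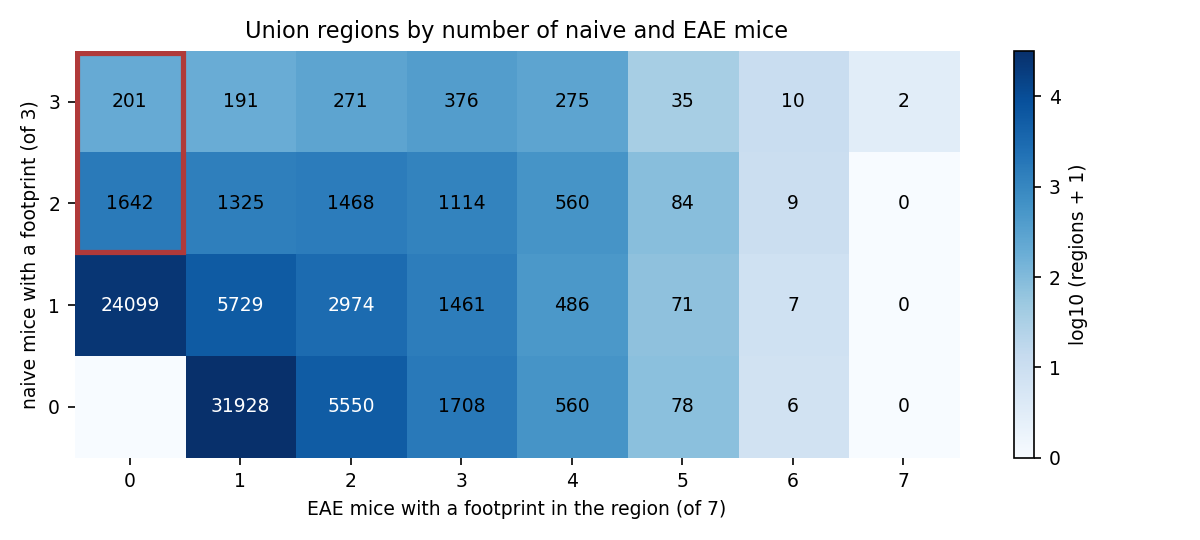
Each cell gives the number of union regions with a footprint in the stated number of naïve mice (vertical axis, of 3) and EAE mice (horizontal axis, of 7), shaded by log10 of the count plus 1, with the naïve-only regions outlined in red. The outlined cells hold 1642 regions of 2 naïve mice and 201 of all 3, next to 1325 and 191 regions with a footprint in a single EAE mouse.

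Few members were footprinted in every naïve mouse. Mice 1 and 3 shared 792 of them, mice 1 and 2 shared 452, mice 2 and 3 shared 398, and all 3 mice had a footprint in 201. In 188 of the 201, a stretch was common to all 3 mice. In 1838 of the 1843 members more than 1 nt was covered in at least 2 naïve mice, and 5 had no common stretch of over 1 nt. Just outside the rule were 1516 regions with a footprint in at least 2 naïve mice and in a single EAE mouse. That mouse was severe EAE mouse 5 in 637 regions, mild EAE mouse 7 in 444, mild EAE mouse 3 in 271, mild EAE mouse 4 in 130, severe EAE mouse 1 in 30, and severe EAE mice 2 and 6 in 2 each.

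The members were 18 to 1013 nt long, with a median of 151 nt, against 162 nt for shared regions. The nearest footprint of an EAE mouse was a median 1464 nt away, within 1000 nt for 799 members (43.4%) and within 100 nt for 202 (11.0%). For 383 members (20.8%) it was more than 10000 nt away. Coding members had a median distance of 1149 nt and intronic members one of 3320.5 nt.

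Naïve-only regions were more often intronic than shared regions. By the middle of each region, 616 (33.4%) lay in introns and 900 (48.8%) in coding sequence, with 92 (4.99%) in untranslated exons, 106 (5.75%) in exons of noncoding transcripts and 129 (7.00%) between genes. Shared regions were intronic in 19.9% and coding in 64.2%. Seen from the other side, 35.1% of the intronic regions footprinted in at least 2 naïve mice were naïve-only, against 19.7% of the coding ones. Mouse by mouse, introns held 40.4%, 34.6% and 31.7% of the footprints that naïve mice 1, 2 and 3 had within genes in naïve-only regions. The same mice had 23.4%, 18.7% and 21.3% in introns in shared regions, so that the ranges did not overlap. The difference was 14.4 percentage points ± 3.57 (SD, n = 3) and was positive in 3 of 3 mice (exact sign-flip test over mice, two-sided, p = 0.25, adjusted p = 0.25 over 6 measures), which is the smallest p that 3 mice allow. Without naïve mouse 1 it was 6.91 percentage points. The pair of naïve mice mattered too: 45.1% of the members of mice 1 and 2 were intronic, 35.1% of those of mice 1 and 3, 26.4% of those of all 3 mice and 20.4% of those of mice 2 and 3.

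The mirror set, 1411 regions with a footprint in at least 2 of the 3 mild EAE mice and in no naïve or severe EAE mouse (mild-only regions), was less intronic still. Introns held 7.05%, 15.4% and 10.2% of the footprints of mild EAE mice 3, 4 and 7 within genes in these regions. All 3 values were below those of the naïve mice in naïve-only regions, a difference of 24.7 percentage points (exact permutation test of 3 against 3, two-sided, p = 0.10, the smallest it allows, adjusted p = 0.20 over 4 measures). Without naïve mouse 1 it was 12.0 percentage points (exact permutation p = 0.20). The sets compared come from different mice, so that a difference between naïve and mild EAE lists as a whole cannot be told apart from one between the sets. The study reported reduced intronic binding in EAE animals, with introns holding the majority in every animal. Its measure differs: it took all annotated clusters of an animal, not footprints in regions chosen by group. Here coding sequence held more naïve-only, shared and mild-only regions than introns did. Intronic footprints of the members lay deep in their introns. The median distance to the nearest exon was 19663, 20812 and 16969 nt in naïve mice 1, 2 and 3, against 10277, 9902 and 9618 nt in shared regions. Within 300 nt of an exon lay 4.07%, 7.29% and 6.27% of them, against 7.87%, 12.1% and 7.64% in shared regions. The host genes were also longer: 428 of the 616 intronic members (69.5%) lay in genes over 200 kb, against 58.2% of intronic shared regions.

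**Figure D2:**
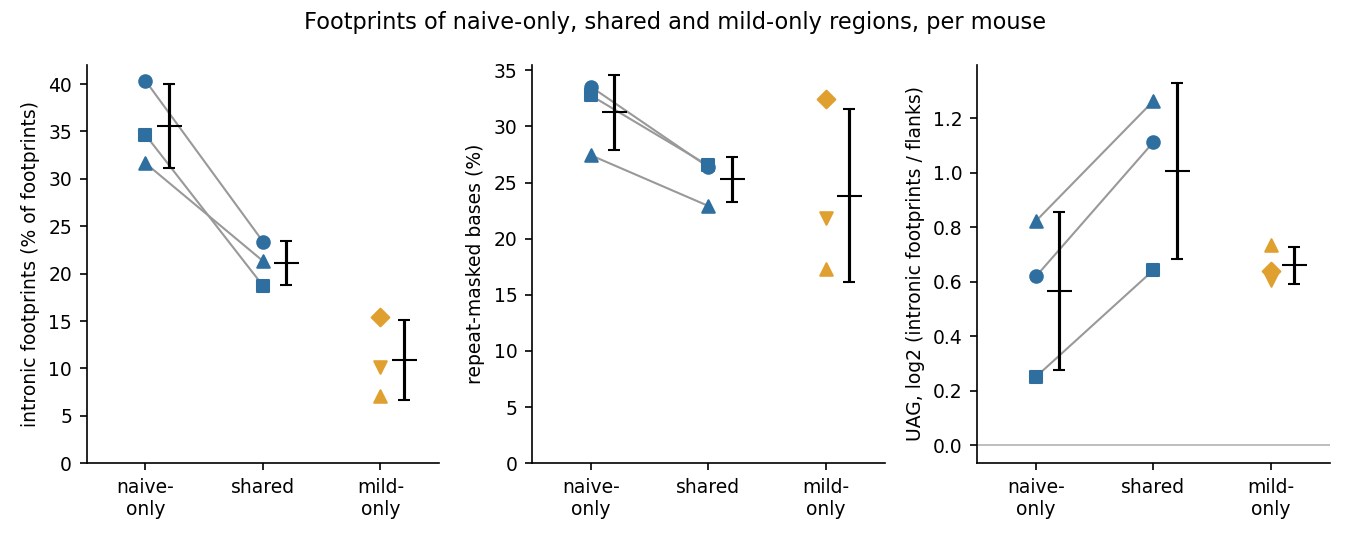
Each point is 1 mouse (blue naïve, orange mild EAE; lines join the values of the same naïve mouse; black marks are mean ± SD, n = 3), with the intronic share of footprints within genes, the share of repeat-masked bases, and the log2 ratio of UAG density in intronic footprints to that of flanking windows. Naïve-only regions are above shared regions in the first 2 panels and below them in the third, in each of the 3 naïve mice.

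Exonic footprints of the members ended on exon borders a little less often than those of shared regions, in each naïve mouse. In naïve mice 1, 2 and 3, 69.9%, 62.3% and 69.8% of exonic footprints in naïve-only regions had at least 1 end on the end of an exon, against 72.2%, 66.6% and 73.0% in shared regions. A footprint that spanned exactly 1 whole exon made up 14.5%, 8.50% and 15.3% in naïve-only regions and 16.8%, 9.83% and 16.4% in shared regions. A spliced alignment of a contig ends a block at such borders. The median footprint in naïve-only regions was 131, 117 and 127 nt long in the 3 mice, against 120, 114 and 123 nt in shared regions, a difference of 6 nt ± 4.36 (SD, n = 3, exact sign-flip p = 0.25) that was 1.5 nt without naïve mouse 1.

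UAG, the core of the hnRNP A1 recognition sequence, was counted on the strand of the gene in each footprint and in windows of the same length 200 nt to either side, for footprints in a single gene. In intronic footprints of naïve-only regions it stood at 22.7, 16.3 and 26.4 per 1000 nt in naïve mice 1, 2 and 3, and at 14.8, 13.7 and 14.9 in the windows. All 3 footprint densities were above their windows, with a mean log2 ratio of 0.56 ± 0.29 (SD, n = 3). In intronic footprints of shared regions UAG was denser, at 35.8, 24.0 and 40.4 per 1000 nt. Their log2 ratio was 1.01 ± 0.32, and the naïve-only ratio was lower in 3 of 3 mice, by a mean log2 difference of -0.44 ± 0.05 (exact sign-flip test, two-sided, p = 0.25, a measure added after values were seen). Intronic AGGU, the other sequence that the study examined, followed the same order, with log2 ratios of 0.33 ± 0.41 in naïve-only and 0.82 ± 0.31 in shared regions. In intronic footprints of mild-only regions the ratios were 0.66 ± 0.07 for UAG and 0.30 ± 0.12 for AGGU, near the naïve-only values. In exonic footprints both were less dense than in their windows: the log2 ratio in naïve-only regions was -1.06 ± 0.18 for UAG and -0.47 ± 0.23 for AGGU. This was not particular to the members: the ratios were -0.99 ± 0.07 and -0.41 ± 0.10 in shared regions. In mild-only regions they were -1.03 ± 0.04 and -0.28 ± 0.07. The windows were set by distance alone, so that those of exonic footprints could lie in introns. Over all footprints the naïve-only log2 ratio of UAG was 0.14, -0.32 and 0.18, against 0.33, -0.21 and 0.33 in shared regions, a difference of -0.15 ± 0.04 (exact sign-flip p = 0.25). With footprints of at most 200 nt alone it was -0.016 (exact p = 0.75), while the intronic difference was -0.47. Over all footprints the mean naïve-only ratio exceeded that of mild-only regions by 0.46 (exact permutation p = 0.20), and by 0.15 without naïve mouse 1. Within a placement the naïve-only mean was not the higher, at 0.56 against 0.66 in introns and -1.06 against -1.03 in exons. Mild-only regions were less often intronic, and the part of placement in the 0.46 was not tested.

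At least 1 UAG was present in 483 of the 551 intronic members of up to 300 nt in a single gene (87.7%), and in 88.7% of their flanking windows. It was present in 327 of the 815 such coding members (40.1%), against 66.8% of windows and 45.9% of coding shared regions. The windows of those shared regions were also higher, at 71.4%. Coding members were shorter, with a median of 109 nt against 123 nt, and the values were not adjusted for length. As the Auh and Rapgef5 sequences show, repeats carry many of these motifs: 51.4% ± 7.91 (SD, n = 3) of the UAG in intronic footprints of naïve-only regions lay in repeat-masked bases, against 58.0% ± 3.15 in shared regions. Repeat-masked bases made up 33.5%, 32.8% and 27.4% of all footprint bases in naïve-only regions, and 26.4%, 26.5% and 22.9% in shared regions, a difference of 5.98 percentage points ± 1.34 (exact sign-flip p = 0.25). Within introns alone the masked share was 53.7% ± 6.54 in naïve-only and 53.9% ± 5.70 in shared regions. Without naïve mouse 1 the overall difference was 0.766 percentage points. GC content differed by 0.221 percentage points (exact sign-flip p = 0.25), a direction that turned when single mice were left out.

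The members lay in 1192 genes, of which 818 held 1 member, 374 held at least 2 and 49 at least 5. These were 41.1% of the 2897 genes with a region footprinted in at least 2 naïve mice. Among the 15 genes with the most members, some held them almost wholly in introns and others wholly outside. Asic2, a proton-gated sodium channel subunit, and Nkain2, which interacts with the sodium pump, each had 13. Lsamp, an immunoglobulin-type adhesion molecule of neurons, and Pcdh9, a protocadherin, each had 12, and Fam155a, a subunit of the NALCN sodium leak channel complex, had 11. All but 1 of the members in Asic2 and all but 1 in Pcdh9 were intronic, as were all those of Nkain2, Lsamp and Fam155a. Slc24a2, a potassium-dependent sodium-calcium exchanger, had 10 members, and Nlgn1, a postsynaptic adhesion molecule, had 8. Dmd (dystrophin), Kirrel3 (synaptic adhesion), Magi2 (a synaptic scaffold) and Nrg1 had 7 intronic members each. In Syne1, a giant nuclear envelope linker, Lrp1, an endocytic receptor, and Fry, a regulator of NDR kinases, the 11, 9 and 8 members were all outside introns.

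**Figure D3:**
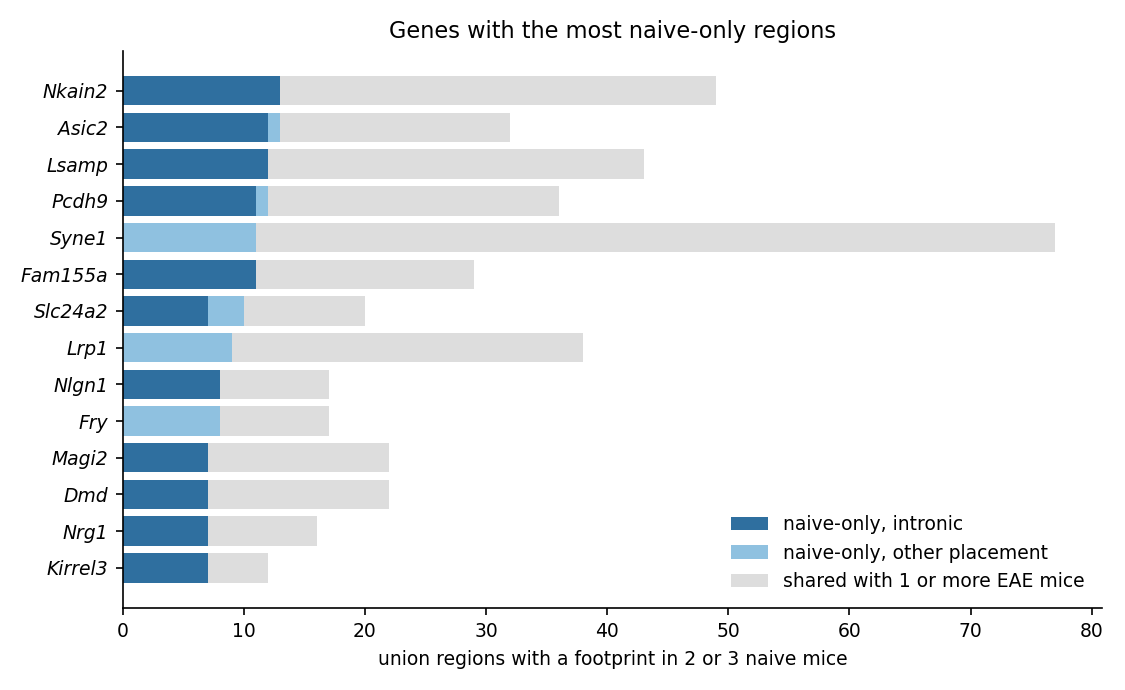
Bars give, for 14 of the 15 genes with the most naïve-only regions, the number of regions with a footprint in 2 or 3 naïve mice, split into naïve-only intronic (dark blue), naïve-only of other placement (light blue) and shared with at least 1 EAE mouse (grey). Syne1 has 11 naïve-only beside 66 shared regions, and Kirrel3 has 7 beside 5.

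These genes were not free of footprints in EAE. Asic2 had 119, 71 and 70 footprints in naïve mice 1, 2 and 3, then 6, 22 and 47 in mild EAE mice 3, 4 and 7, and 83 in severe EAE mouse 5. Severe EAE mice 1, 2 and 6 had none in Asic2. Lsamp had 193, 86 and 70 in the naïve mice, 10, 42 and 100 in the mild EAE mice and 152 in severe EAE mouse 5. Nkain2 had 117, 71 and 58 in the naïve mice, 10, 54 and 68 in the mild EAE mice and 92 in severe EAE mouse 5. For each of the 3 genes mild EAE mouse 3, whose whole list was the second longest of the mild EAE mice, was below every naïve mouse. In each, severe EAE mouse 5 was within the naïve range, although its whole list, 31870 footprints, was longer than the 17119 to 17494 of the naïve mice. These numbers were not scaled to list length. The naïve numbers include footprints in the members, which EAE mice lack by the rule, such as 12, 8 and 8 in Asic2. Beside the 119 footprints of naïve mouse 1 in Asic2, only 32 regions of the gene were footprinted in at least 2 naïve mice.

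Nrg1, Kirrel3 and Nlgn1 had fewer footprints in each mild EAE mouse than in any naïve mouse. Nrg1 had 51, 30 and 30 in the naïve mice (1, 2 and 3 in this order) against 6, 6 and 19 for mild EAE (mice 3, 4 and 7). Kirrel3 had 38, 24 and 24 against 2, 7 and 15, and Nlgn1 had 55, 25 and 23 against 4, 6 and 22. In these 3 genes, chosen with the values in view, the naïve and mild EAE ranges did not overlap. The naïve numbers include footprints in the members, which EAE mice lack by the rule. These were 6, 2 and 8 in Nrg1, 6, 5 and 5 in Kirrel3 and 6, 4 and 6 in Nlgn1. In Nlgn1 they exceed the gap between 23 in naïve mouse 3 and 22 in mild EAE mouse 7. The gaps are therefore a description and carry no test. Severe EAE mouse 5, with 33, 29 and 25 footprints, lay within the naïve range of each, but its whole list was longer than any naïve list. In the exonic genes Fry and Lrp1 the naïve and mild EAE ranges overlapped, in Fry through naïve mouse 1 alone. Fry had 5, 26 and 29 footprints in the naïve mice, 1, 1 and 14 in the mild EAE mice and 20 in severe EAE mouse 5. Lrp1 had 55, 15 and 43 in the naïve mice and 52, 38 and 56 in the mild EAE mice, with 22, 2, 73 and 6 in severe EAE mice 1, 2, 5 and 6, so that its 9 members sat among footprints of every mouse.

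**Figure D4:**
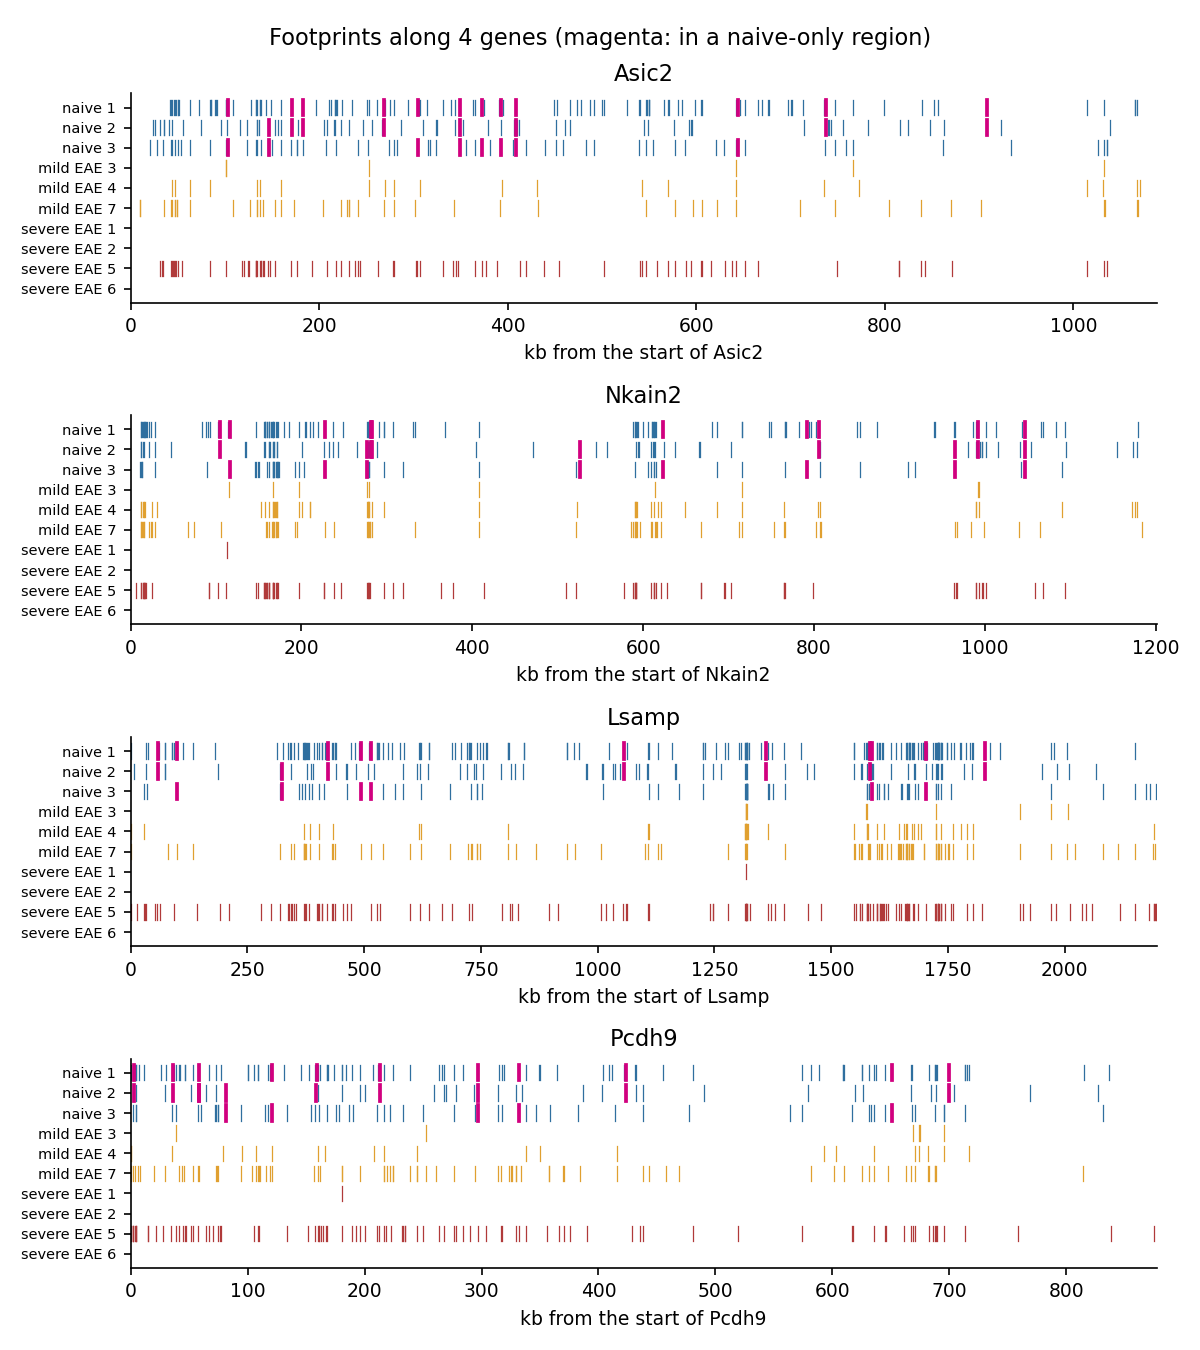
Each tick is a footprint along Asic2, Nkain2, Lsamp or Pcdh9 (horizontal axis, kb from the gene's start in its own direction), with 1 row per mouse in blue (naïve), orange (mild EAE) or red (severe EAE), and footprints in naïve-only regions in magenta. Magenta ticks are spread along each gene among many other footprints, and severe EAE mouse 5 has 83, 92, 152 and 100 footprints in the 4 genes.

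Long genes hold many regions of every kind, and the share that was naïve-only varied between them. In Nkain2 and Lsamp, 26.5% and 27.9% of the regions footprinted in at least 2 naïve mice were naïve-only, near the 24.4% of all such regions, and in Syne1 14.3%. In Kirrel3 the share was 58.3%. Grm5, a metabotropic glutamate receptor, had 5 regions and all 5 were naïve-only. Kcnd2, a subunit of the A-type potassium channel, had 6 of 8. Cntnap2, a cell adhesion molecule that clusters potassium channels along axons, had 5 of 7. Even so Grm5 had 14, 16 and 8 footprints in the naïve mice, 1, 5 and 13 in the mild EAE mice and 16 in severe EAE mouse 5. Kcnd2 had 30, 19 and 10 in the naïve mice, 1, 5 and 17 in the mild EAE mice and 27 in severe EAE mouse 5. For both genes the mild EAE and naïve ranges overlapped.

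The members covered at the same bases in every naïve mouse were of both kinds. The longest such stretch, 348 nt, lay in an intron of Mctp1, a calcium-binding transmembrane protein, in a member at chr13:76445224-76445606 whose nearest EAE footprint was 20797 nt away. Mctp1 had 2, 6 and 2 footprints in the naïve mice and 2, 3 and 4 in the mild EAE mice. Severe EAE mouse 5 had 10 in Mctp1, and all EAE footprints lay elsewhere in the gene. A member in an intron of Erbb4, a receptor for neuregulins, had 155 nt common to the 3 mice, near the 159 nt of the Nrg1 region. The repeat mask covered 81.1% of this Erbb4 member. Erbb4 had 7, 11 and 3 footprints in the naïve mice, 1 in each mild EAE mouse and 4 in severe EAE mouse 5. The Robo1 region lay 62948 nt from the nearest EAE footprint, and Robo1 as a whole had 23, 15 and 17 footprints in the naïve mice, 2, 2 and 8 in the mild EAE mice and 21 in severe EAE mouse 5. The coding members of Sptan1, Prrc2c and Nav1 had 149, 146 and 144 nt in common. Sptan1 was footprinted as often in mild EAE as in naïve cord, with 37, 25 and 40 in the naïve mice against 43, 29 and 32. Severe EAE mouse 5 had 46 in Sptan1, and this member lay 277 nt from an EAE footprint.

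Some host genes had footprints of naïve mice alone. Of the 1192 host genes, 137 (11.5%) had no footprint of any EAE mouse, and 76 of these were protein-coding. Genes with a region footprinted in at least 2 naïve mice numbered 2897 in all. Absence in EAE mice was what the rule selected, so that the count is a description and carries no test. Only 12 of the 137 genes held at least 2 members. Cpne9, a copine that binds membranes in response to calcium, held the most members of these, 4 short coding regions, each footprinted in naïve mice 1 and 3. It had 5, 4 and 5 footprints in naïve mice 1, 2 and 3, and none in the 7 EAE mice. Edc4, a scaffold of the mRNA decapping complex, had 2 members and 5, 0 and 2 naïve footprints. Eng, an endothelial co-receptor for TGF-beta, had 2 members and 1, 6 and 2 naïve footprints. Rac3, a small GTPase of neurons, had 2 members and 2, 2 and 1 naïve footprints, and Rab18, which acts at lipid droplets and the endoplasmic reticulum, had 2 intronic members and 2, 0 and 4. The remaining 3 of the 8 such genes with the most members were 0610010F05Rik and the antisense genes 4931403E22Rik and AC121821.3, with 3, 3 and 2 members. The lists carry no strand, so that a footprint on an antisense gene cannot be told apart from one on the gene across from it: the 2 members of AC121821.3 are also the 2 of Matr3, a nuclear matrix RNA-binding protein. At the other end, 529 host genes had a footprint in all 3 mild EAE mice, and 957 (80.3%) had one in severe EAE mouse 5.

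Among gene lists, those of synaptic and channel genes gave mostly intronic members and those of cytoskeletal and ribosomal genes mostly exonic ones. Of the 258 regions in synaptic scaffold, adhesion and release genes that were footprinted in at least 2 naïve mice, 82 (31.8%) were naïve-only, 62 of them intronic, with Lsamp, Nlgn1 and Cntnap2 among those with the most. Of the 120 in voltage-gated and ligand-gated channel genes, 39 (32.5%) were, 29 of them intronic, led by Kcnd2, Gria4, Grm5 and Grm7. The value over all protein-coding genes was 1599 of 6732 (23.8%). In microtubule and membrane cytoskeleton genes it was 45 of 388 (11.6%), 4 of them intronic. Of all regions footprinted in at least 2 naïve mice, 35.1% of the intronic and 19.7% of the coding ones were naïve-only. The part of placement in the shares of the lists was not tested. Dst, a giant linker of cytoskeletal filaments, had 7 of 59 regions naïve-only, and Macf1, which links microtubules to actin, had 4 of 64. These genes were also footprinted throughout EAE cord: Dst had 87, 32 and 71 footprints in the naïve mice, 66, 61 and 87 in the mild EAE mice and 101 in severe EAE mouse 5.

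In cytosolic ribosomal protein genes, 20 of 39 regions (51.3%) were naïve-only, spread over 14 of the 22 genes with a region, and no member was intronic. Rpl3 and Rpl5 had 2 members each, with 3, 2 and 7 and with 3, 2 and 6 footprints in the naïve mice and 5, 2 and 1 and 5, 3 and 4 in the mild EAE mice. All 14 of these genes had an EAE footprint elsewhere in the gene, and ribosomal protein genes have many processed copies in the genome to which a contig could also align. Of the regions in respiratory chain genes 9 of 28 (32.1%) were naïve-only, and of those in hnRNP, SR and other splicing regulators 22 of 105 (21.0%). Rbfox1, a neuronal splicing regulator, had 4 members, all intronic, beside 17 shared regions.

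**Figure D5:**
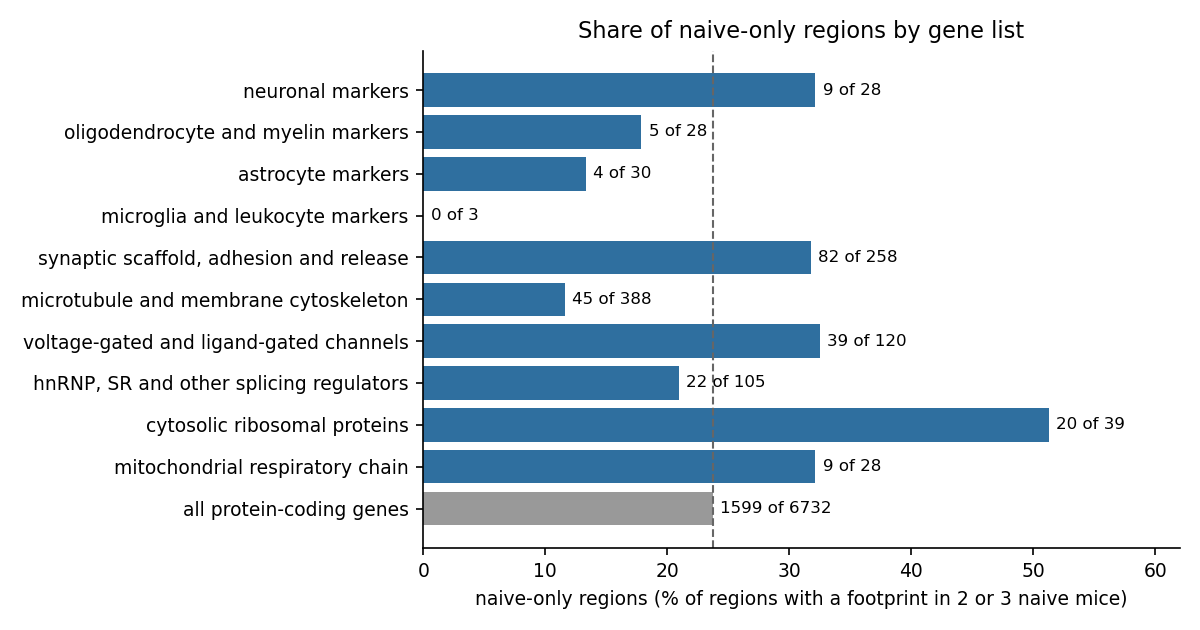
Bars give the percent of regions footprinted in 2 or 3 naïve mice that were naïve-only, for each gene list, with the counts beside them, and the dashed line marks all protein-coding genes (23.8%). Ribosomal protein genes stand at 51.3% from 39 regions and cytoskeleton genes at 11.6% from 388.

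Markers of the cord's cell types gave few regions. Naïve-only were 9 of 28 regions (32.1%) in neuronal markers, 5 of 28 (17.9%) in oligodendrocyte and myelin markers, 4 of 30 (13.3%) in astrocyte markers and 0 of 3 in microglia and leukocyte markers. Mbp, a major protein of myelin, had 3 intronic members and 26, 9 and 25 footprints in the naïve mice, against 3, 5 and 18 in the mild EAE mice and 35 in severe EAE mouse 5. Gfap, the astrocyte filament protein, had 1 member and 0, 2 and 7 naïve footprints. In EAE cord it had 1 footprint in severe EAE mouse 1, 2 in mouse 5 and none in the other 5 mice. Not all markers with a member followed this order. Glul, another astrocyte marker, had 0, 1 and 3 footprints in the naïve mice and 8, 4 and 3 in the mild EAE mice. Mag, a myelin marker, had 5, 3 and 4 against 8, 2 and 9, and the neuronal marker Eno2 had 3, 0 and 9 against 6, 7 and 6. The part of cell makeup in the members was not tested.

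Mapt and Nrcam, among the genes whose RNA the study followed further, each had 1 member, in coding sequence and footprinted in naïve mice 1 and 3. In the Mapt region printed above, 119 nt were covered in both mice and the nearest EAE footprint was 448 nt away, and Mapt had 3 shared regions. Over the whole of Mapt there were 4, 8 and 10 footprints in the naïve mice, 8, 6 and 12 in the mild EAE mice and, for severe EAE, 3 in mouse 1, 17 in mouse 5 and none in mice 2 and 6. In the Nrcam region 24 nt were covered in both mice, and the nearest EAE footprint was 1928 nt away. Nrcam had 12, 2 and 3 footprints in the naïve mice, 0, 3 and 11 in the mild EAE mice and, for severe EAE, 5 in mouse 5, 1 in mouse 6 and none in mice 1 and 2. For both genes the numbers of footprints in naïve and mild EAE mice overlapped. Hnrnpa2b1, an hnRNP closely related to hnRNP A1 and also followed by the study, had 2 members outside introns beside 3 shared regions. It had 6, 3 and 6 footprints in the naïve mice, 1, 2 and 1 in the mild EAE mice and 2 in severe EAE mouse 5. The naïve values were above the others, but 2, 1 and 2 of these naïve footprints lay in the members, which EAE mice lack by the rule.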

How the data were processed

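hnRNP A1 immunoprecipitations of 10 spinal cords, 1 library per mouse, were used; the input and pooled IgG libraries were not analysed here. Per the study's methods and the submitters' processing notes, the authors extracted and trimmed reads with bcl2fastq 2.19.0.316 and fastp, built contigs from them (rnaSPAdes), placed these on GRCm38 by spliced alignment (minimap2 2.17), subtracted intervals of the matched input and pooled IgG with bedtools, and merged the rest. The lists deposited by the authors hold chromosome, start and end of each footprint, in no other unit: no score, count or strand. Footprints that a deeper input covers are removed, so that a list's length depends on both libraries.

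Union regions were made from all 136207 footprints, with mice grouped by the labels. Regions were placed by their midpoint on GENCODE M21 (coding sequence first, then untranslated exon, noncoding exon, intron). Sequence came from GRCm38.p6, whose lower-case letters were taken as repeats. Python 3.11.15, numpy 2.4.6 and pysam 0.24.0 were used, and the scripts were tested on simulated data. Mice, not regions, were the replicates: values in naïve-only and shared regions of the same 3 naïve mice were compared with an exact sign-flip test, and 3 naïve with 3 mild EAE mice with an exact permutation test, both two-sided, with Benjamini-Hochberg adjustment. Named genes were Mapt and Nrcam, the 15 genes with the most members, those of the 10 members with the longest stretch common to 3 naïve mice, the 8 with the most members and no EAE footprint, and up to 4 of each list, from which the text draws. Some of these genes are not reported here. The members and lists were chosen with earlier results of these data known. Other joining distances, length limits, mice left out and placements were tried.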

Additional observations from a re-analysis of the deposited data

Results flagged for a closer look

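Among the 4 severe EAE mice, mouse 5 stood apart in the length of its list, 31870 footprints against 2670, 209 and 673: the gap to the next mouse was 0.922 of the group's whole range. It also stood apart in how many regions of at least 2 naïve mice it touched, 4245 against 425, 29 and 90, a gap of 0.906 of the range. Chance flags about 1 in 20 groups of this size by this measure. Severe EAE mouse 5 alone kept 637 regions from being naïve-only. By its sample numbering, the study had already described this mouse as an outlier whose binding profile resembled that of naïve and mild EAE mice. It also reported that the mouse had been in remission shortly before the end of the experiment.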

How the results depend on the processing

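The number of naïve-only regions, 1843, depended on which mice were used. When single mice were left out, it ran from 603 (without naïve mouse 1) to 2482 (without severe EAE mouse 5). It was 999 without naïve mouse 2 and 660 without naïve mouse 3. Leaving out a naïve mouse also made the rule stricter, since both remaining naïve mice then needed a footprint. The number was 3235 without the 3 mild EAE mice and 201 when all 3 naïve mice were needed. The host genes, 1192, ran from 483 (without naïve mouse 1) to 1466 (without severe EAE mouse 5), and were 1809 without the 3 mild EAE mice. The GC difference between naïve-only and shared regions, 0.221 percentage points, was -0.206 without the 4 severe EAE mice and ran from -0.249 (without severe EAE mouse 5) to 1.20 (without naïve mouse 1) when single mice were left out, with -0.123 without naïve mouse 3 and -0.134 without mild EAE mouse 7. The GC difference from mild-only regions, -1.28, ran from -2.27 (without naïve mouse 2) to 0.521 (without naïve mouse 1). The cause was not tested. The intronic share against shared regions kept its direction under all 21 alternatives, from 6.91 to 21.1 percentage points, and that of intronic UAG under all 21, from -0.58 to -0.35. Over all footprints the UAG difference, -0.15, kept its direction but was -0.016 with footprints of at most 200 nt. Values of the same mouse were compared in pairs; with no replicate block the intronic difference stayed 14.4 percentage points (exact permutation p = 0.10). With 3 naïve mice no test here could pass 0.05, and the lists give no reads behind a footprint.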
